A study of Homo sapiens with 2 samples.

Results

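The genes described here are 41 genes of DNA double strand break and interstrand crosslink repair, chosen by name and sorted into homologous recombination, the Fanconi pathway, end joining and the damage kinases, out of 13083 genes measured. They were read on 1 HumanHT-12v4 BeadChip array of nilotinibR cells and 1 array of parental cells. Both are K562, an established chronic myeloid leukemia line driven by BCR/ABL. NilotinibR cells had been passaged first in 0.1 µM nilotinib, a BCR/ABL inhibitor, and then in 0.3 µM and 1 µM over 3 months, and were kept in medium with 1 µM drug, whereas parental cells were kept alongside without drug. NilotinibR is 1 selected K562 population, so that selection and drug exposure cannot be told apart. Since each condition has a single array, no difference was checked in a replicate array and none carries a p-value. The precision is limited by that number of arrays. Of the 41 members, 36 had at least 1 probe under their symbol, and 29 had a probe brighter than the dim probes of an array. On both arrays these 29 exceeded that level.

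A double strand break can be rejoined directly by end joining, in which the Ku dimer binds the ends, recruits the DNA-dependent protein kinase and hands them to a ligase. It can also be copied from the sister chromatid by homologous recombination, in which the ends are cut back, a freed strand invades the sister duplex, and the joined molecules are later cut apart by structure-specific endonucleases. The Fanconi pathway recognizes DNA strands locked together by a crosslink, marks the site by adding ubiquitin to the FANCI and FANCD2 pair, and passes the resulting break to homologous recombination. Leukemia cells that carry BCR/ABL are known for a high load of such breaks. Many homologous recombination genes are transcribed as cells enter S phase, while the Ku genes are expressed throughout the cell cycle.

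Of the 25 measured members of homologous recombination, the Fanconi pathway and the damage kinases, 5 passed 1.5-fold upward in nilotinibR cells and 0 downward. None of the end joining members passed 1.5-fold, and all 4 measured had negative differences, beside 6583 of all 13083 genes. Of these 4, LIG4 was close to the dim probes. FANCI was 2.14-fold higher, the kinase gene ATM 1.98-fold, the nuclease subunit gene EME1 1.90-fold, the nuclease scaffold gene SLX4 1.77-fold and BRCA1 1.68-fold. These 5 of 29 measured members (17.2%) were at least 1.5-fold higher, beside 7.57% of all genes, and 0 of 29 were at least 1.5-fold lower, beside 8.28% of all genes. At 2-fold, 1 of the 29 members, FANCI, was higher, beside 2.45% of all genes, and 0 were lower, beside 2.80% of all genes. That single call was lost with 75th percentile scaling and in the deposited values, while ATM joined it with the brightest probe of each gene, and ATM and EME1 with an offset of 16. The median log2 difference of the 29 members, nilotinibR minus parental, was 0.17, against -0.0025 over all genes, and 22 of the 29 had a positive difference, beside 49.7% of all genes. With dim probes included, 36 members had a median of 0.10. EME1 was among the genes that the study selected partly because they were upregulated on these same arrays, so its direction here is not independent evidence. The study also required RNA methylation sites and a known role in resistance, survival or proliferation. It separately reported upregulation of the selected genes by qPCR in resistant cells, K562 among them, which was not examined here. Without EME1, 4 members remained at least 1.5-fold higher and the median was 0.16.

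The fold changes come from intensities corrected for background with an offset that pulls the folds of dim genes toward 1. How far probes of the same gene differ is the only repeated measurement on these arrays. It does not cover variation between cultures, RNA samples or arrays. Over 2086 genes with exactly 2 probes above the dim probes on both arrays, the probes of a gene differed by a median of 0.18 on the log2 scale, and the 95th percentile of that gap was 0.69. The matching log2 SD of 1 probe difference was 0.245. A single probe near 1.5-fold, a log2 difference of 0.58, is smaller than that 95th percentile, although a gap compares 2 probes. Of the 29 members, 16 rest on 1 probe, and of the other 13, 10 had all their probes on the same side of 0. BRCA1 and MRE11 have 1 pseudogene copy each in the RefSeq gene table, XRCC6 has 5 and CHEK2 has 6. Probe sequences were not compared with these copies.

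**Figure D1:**
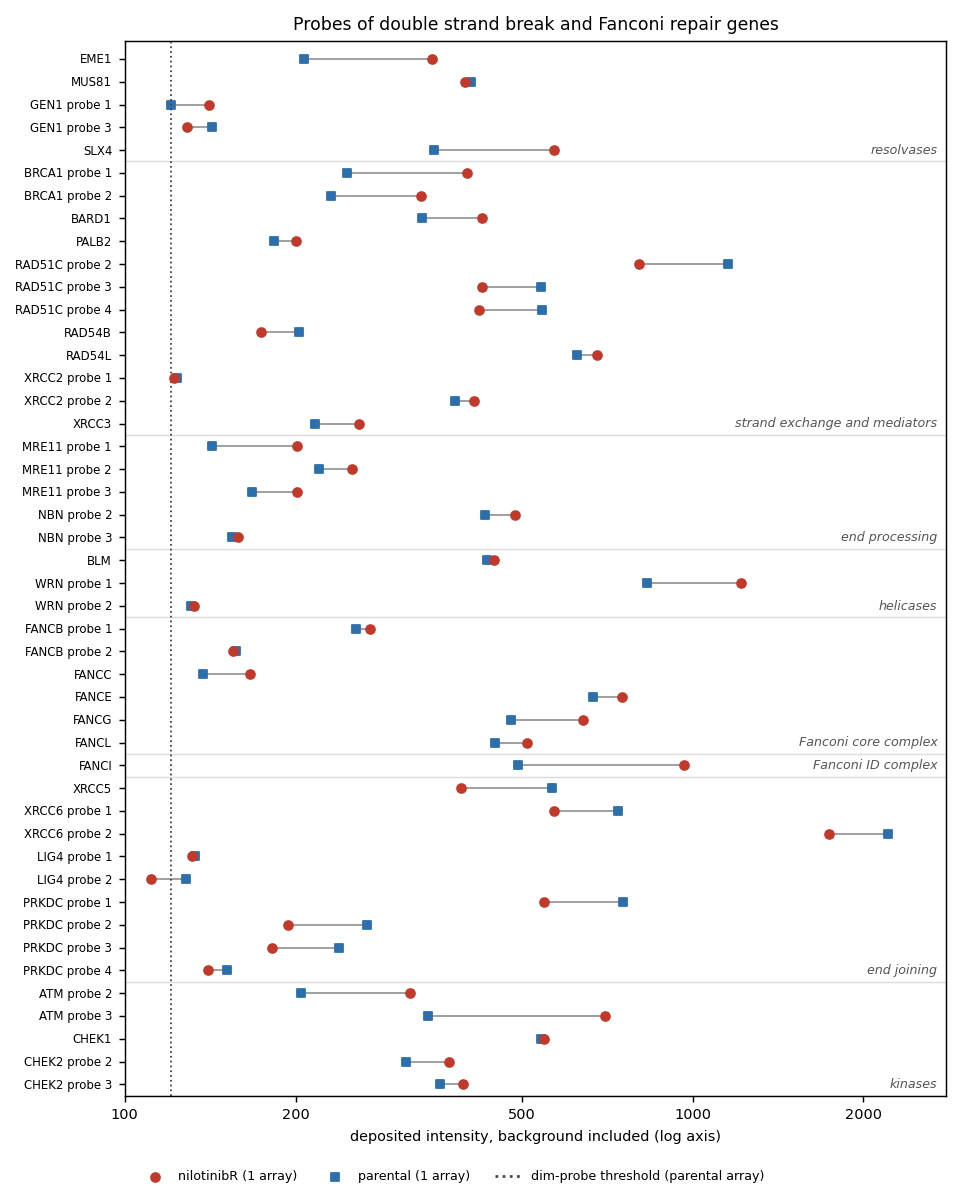
Deposited intensity, on a log axis with the background included, of each kept probe of the measured members, with nilotinibR as circles and parental as squares (1 array each). The dotted line is the level of the dim probes on the parental array (120). FANCI, ATM, EME1, SLX4 and BRCA1 have the widest gaps to the right, and the probes of XRCC5, XRCC6 and PRKDC lie to the left of their parental values.

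Among the enzymes that cut recombination intermediates apart, EME1 and SLX4 of 4 measured genes passed 1.5-fold upward and 0 downward, beside 7.57% and 8.28% of all genes, with a median log2 difference of 0.45. EME1 is the noncatalytic partner of MUS81 in a nuclease that cuts branched DNA. Its probe read 347 in nilotinibR cells and 207 in parental cells, a log2 difference of 0.92, which 3.03% of all genes reached or exceeded. MUS81, the catalytic subunit of the same nuclease, read 397 in nilotinibR cells and 408 in parental cells, a log2 difference of -0.01. The differences of the 2 genes were therefore unequal, with EME1 higher and MUS81 near level. The amounts of the 2 proteins were not measured on these arrays. SLX4, a scaffold that binds MUS81-EME1 and other nucleases and is itself a Fanconi gene, read 570 in nilotinibR cells and 350 in parental cells, a log2 difference of 0.83. GEN1, a resolvase that acts on Holliday junctions independently of that scaffold, gave probes of opposite sign. The first read 141 in nilotinibR cells and 121 in parental cells, and the other kept probe 129 in nilotinibR cells and 142 in parental cells, all close to the dim probes, with log2 differences of 0.37 and -0.21.

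BRCA1 was the member of the strand exchange group past 1.5-fold upward, 1 of 8 measured (12.5%), and 0 were past it downward. Of all genes, 7.57% were higher and 8.28% lower. The group had a median log2 difference of 0.16. BRCA1, a ubiquitin ligase that promotes resection, was read by 2 probes. They gave 401 and 332 in nilotinibR cells against 247 and 230 in parental cells, with log2 differences of 0.85 and 0.65. Both were therefore past 1.5-fold in the same direction. The second was smaller than 0.69, the 95th percentile of the gap between 2 probes of a gene. BARD1, its obligate partner, read 426 in nilotinibR cells and 334 in parental cells, a log2 difference of 0.44. PALB2, which bridges BRCA1 to BRCA2, read 200.1 in nilotinibR cells and 184 in parental cells, a log2 difference of 0.16.

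The related genes XRCC2, XRCC3 and RAD51C, which act in strand exchange, did not move together. XRCC3 had a log2 difference of 0.32, with 258 in nilotinibR cells and 216 in parental cells, and XRCC2 had 0.08 as the mean of 2 probes, of which 1 lay next to the dim probes on both arrays. RAD51C, whose product pairs with XRCC3, was read by 3 kept probes, at 806, 426 and 421 in nilotinibR cells against 1154, 541 and 544 in parental cells. All 3 had negative differences, between -0.49 and -0.33 on the log2 scale, and the mean was 1.31-fold lower, short of the threshold. Of the motor proteins of strand exchange, RAD54L read 679 in nilotinibR cells and 626 in parental cells, a log2 difference of 0.17, and RAD54B read 174 in nilotinibR cells and 203 in parental cells, a difference of -0.30. None of these passed 1.5-fold.

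Of the genes that process DNA ends, MRE11 and NBN were measured, and neither passed 1.5-fold as the mean of its probes. MRE11, listed among the members under its older symbol MRE11A, is the nuclease of the complex that first binds and trims ends. Its 3 probes read 201, 251 and 201 in nilotinibR cells against 142, 220 and 168 in parental cells, with log2 differences of 0.69, 0.24 and 0.34. All 3 differences were positive and 1 of them passed 1.5-fold. NBN, which recruits ATM to that complex, had a mean log2 difference of 0.14, with its brighter probe at 488 in nilotinibR cells and 431 in parental cells. Of the RecQ helicases, BLM, which dissolves joined chromatids, read 447 in nilotinibR cells and 434 in parental cells, a log2 difference of 0.09. WRN, a helicase that is also an exonuclease, was read by probes that disagreed. The bright one gave 1218 in nilotinibR cells and 830 in parental cells, a log2 difference of 0.63, and the other, close to the dim probes, 133 in nilotinibR cells and 131 in parental cells, a difference of 0.04.

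All 6 measured genes of the Fanconi core complex and the FANCI and FANCD2 pair had positive differences, beside 49.7% of all genes. Fanconi genes sorted into homologous recombination, such as SLX4, were not counted here. Of the 16 measured homologous recombination members, 13 had positive differences. FANCI, 1 of the 6 (16.7%), was at least 1.5-fold higher and 0 were lower, beside 7.57% and 8.28% of all genes. FANCI, which with FANCD2 forms the clamp that is ubiquitinated on damaged DNA, read 965 in nilotinibR cells and 493 in parental cells. Its log2 difference of 1.10 was the largest of the 29 members as the mean of kept probes, and was reached or exceeded by 2% of all genes. It rests on 1 probe, and with the brightest probe of each gene ATM, at 1.17, was above it. The core complex is the ubiquitin ligase that acts on this pair, and 0 of its 5 measured members passed 1.5-fold, with a median log2 difference of 0.26. That median was 0.17 with 75th percentile scaling and 0.080 over 7 genes with dim probes included. FANCG, a subunit of the complex, came nearest at 643 in nilotinibR cells and 479 in parental cells, a log2 difference of 0.51. FANCC, in the subcomplex with FANCE, read 167 in nilotinibR cells and 138 in parental cells, a difference of 0.39. FANCL, the catalytic subunit, read 512 in nilotinibR cells and 450 in parental cells, a difference of 0.26. Its other probe was dim on both arrays, and with it included the mean was 0.080. FANCE read 753 in nilotinibR cells and 668 in parental cells, a difference of 0.23. FANCB, which forms a module with FANCL, had probe differences of 0.10 and -0.04. The core complex genes thus ranged from level to 1.43-fold higher, all short of FANCI.

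**Figure D2:**
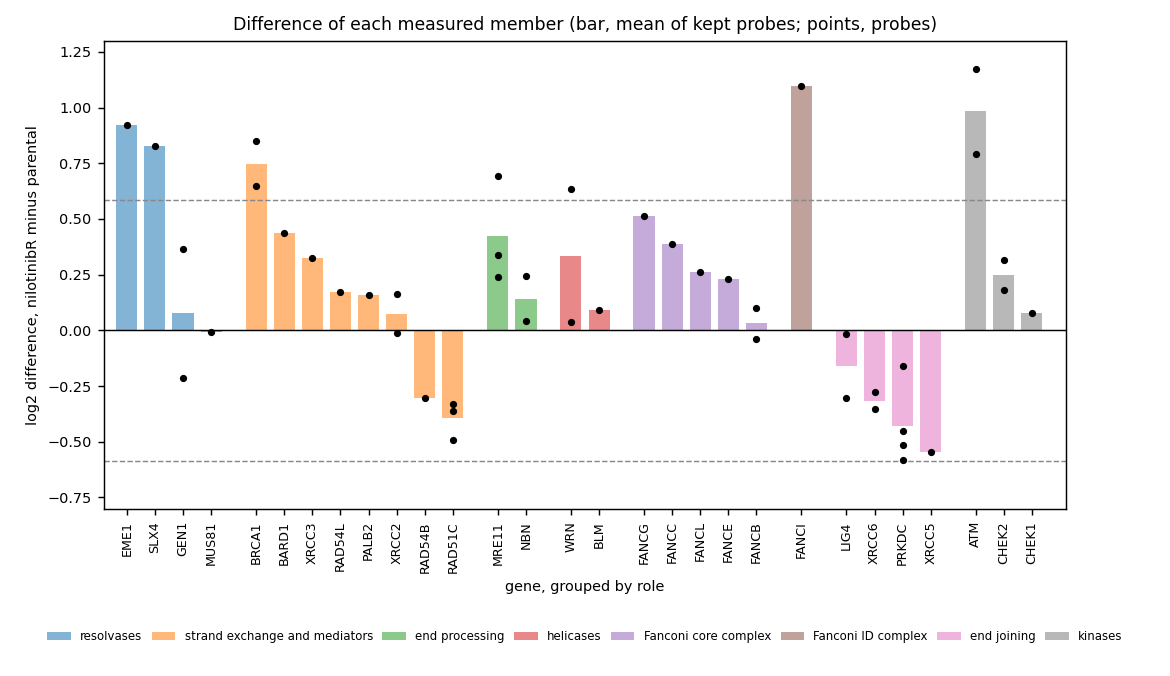
Log2 difference, nilotinibR minus parental, of the 29 measured members grouped by role, with the mean of kept probes as bars and each probe as a point. Dashed lines mark 1.5-fold in either direction; 5 bars cross the upper line, and all 4 end joining bars point down without crossing the lower one.

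The 4 measured end joining genes all had negative differences, beside 6583 of all 13083 genes. Their median log2 difference was -0.37. At 1.5-fold, 0 of 4 were higher and 0 lower, beside 7.57% and 8.28% of all genes. XRCC5, the Ku80 subunit that grips DNA ends, read 391 in nilotinibR cells and 566 in parental cells, and at 1.46-fold lower it was the nearest member to the threshold on that side. XRCC6, the Ku70 subunit, was read by 2 probes, at 571 and 1742 in nilotinibR cells against 740 and 2207 in parental cells, with log2 differences of -0.35 and -0.28. All 3 Ku probes thus had negative differences, none of them past 1.5-fold. Each was smaller in size than 0.69, the 95th percentile of the gap between 2 probes of a gene, although a gap compares 2 probes. The log2 SD of 1 probe difference was 0.245. PRKDC, the catalytic subunit of the DNA-dependent protein kinase, was read by 4 probes, all with negative differences. They read 547, 194, 181 and 140 in nilotinibR cells against 756, 267, 239 and 151 in parental cells. Their log2 differences lay between -0.58 and -0.16, and their mean was 1.35-fold lower, also short of the threshold. LIG4, the ligase of this pathway, was close to the dim probes, with kept probes at 131 and 111 in nilotinibR cells against 133 and 128 in parental cells. Their log2 differences were -0.02 and -0.30, and in nilotinibR cells the second stayed at the level of dim probes. Its remaining probe, dim on both arrays, had a difference of 0.22. The LIG4 mean of -0.16 thus rests on the second probe, and was -0.02 over probes above the dim level on both arrays. The XRCC5 difference passed 1.5-fold, at log2 values of -0.60 with an offset of 16, -0.61 with median scaling and -0.63 with 75th percentile scaling.

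Of the damage kinases, ATM, which breaks activate, was past 1.5-fold. Its 2 kept probes read 318 and 700.4 in nilotinibR cells against 204 and 343 in parental cells, with log2 differences of 0.79 and 1.17, and 2.61% of all genes were as high as their mean. One more probe of the gene was dim on both arrays, and with it included the mean log2 difference was 0.61. CHEK2, the checkpoint kinase that ATM phosphorylates, had 2 kept probes at 372 and 395 in nilotinibR cells against 312 and 360 in parental cells, a mean log2 difference of 0.25. CHEK1, the checkpoint kinase downstream of ATR, read 547 in nilotinibR cells and 541 in parental cells, a difference of 0.08. ATR itself, the kinase of stalled replication forks, had 3 probes, all dim on both arrays. The kinase step was thus measured on the ATM side and, on the ATR side, at CHEK1 alone.

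Besides ATR, 6 members were dim on both arrays and have no fold change here: the helicase gene BRIP1, the annealing factor gene RAD52, the MRE11 partner RAD50, the Fanconi genes FANCF and FANCM, and XRCC4, the scaffold of LIG4. Their probes read between 108 and 117 in nilotinibR cells and between 100.5 and 118 in parental cells, not above the level of the dim probes, so that a low level of these genes was not detectable. For EME2, BRCA2, RBBP8, FANCA and FANCD2 no probe carried the symbol in the platform table used, and they were not analysed here.

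The wider pathway was described with 77 further genes of double strand break and crosslink repair, of which 71 were measured. Of these, 6 (8.45%) were at least 1.5-fold higher and 2 (2.82%) lower, beside 7.57% and 8.28% of all genes, and their median log2 difference was 0.10. The share of higher genes was therefore close to that of all genes. POLQ, the polymerase that joins ends through short homologies, was 2.27-fold higher, and was listed with homologous recombination although it is also an end joining gene. Among 22 other homologous recombination genes without POLQ, 2 were higher and 0 lower, with a median of 0.20. RMI2, a subunit of the complex in which BLM works, was 1.91-fold higher, and RAD51AP1, a strand invasion factor, was 1.55-fold higher. Among 16 other crosslink repair genes, the nuclease gene FAN1 was 1.51-fold higher and CENPX, a histone fold partner of FANCM that also sits at centromeres, was 1.98-fold lower. Among 11 other end joining genes with POLQ, 1 was higher, POLQ itself, and 0 lower, with a median of -0.075. Among 22 damage signalling genes TIMELESS, a fork protection factor, was 1.94-fold higher and MDC1, which reads phosphorylated histone at breaks, 1.53-fold higher. TP53BP1, which shields ends from resection and so favours end joining, was 1.58-fold lower. Each of these 8 genes rests on 1 kept probe.

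**Figure D3:**
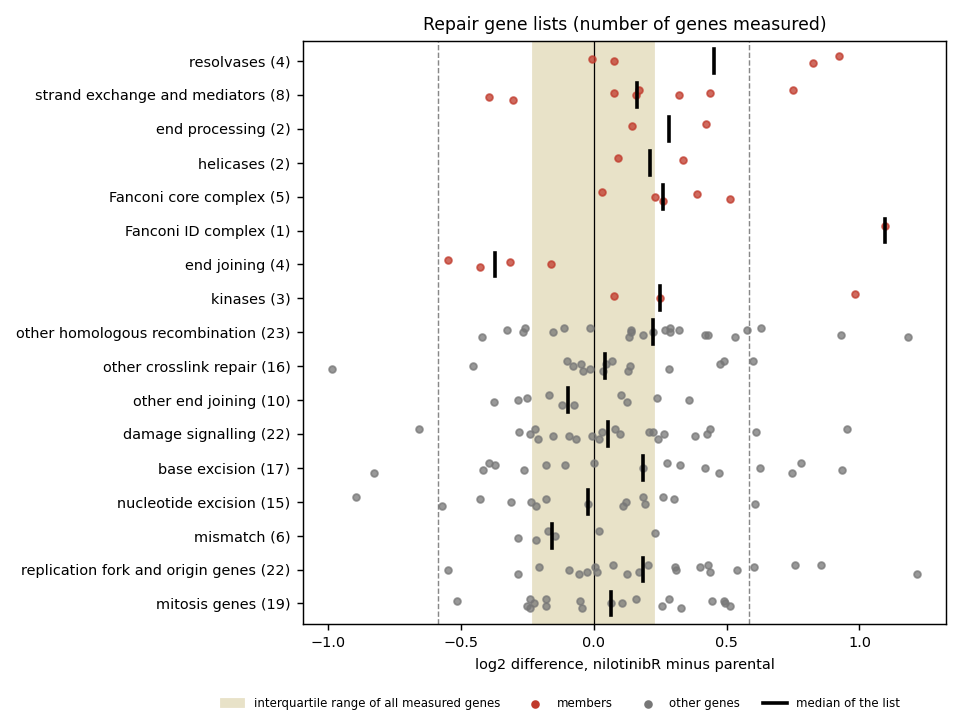
Log2 difference, nilotinibR minus parental, of each measured gene by list, members in red and other genes in grey, with the list median as a black bar, the interquartile range of all genes shaded and 1.5-fold as dashed lines. The end joining members lie left of 0 with a median of -0.37, and the other member lists have medians of 0.16 or more.

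The replication genes most like the members in timing were set beside them with a list written after the members' values had been seen. Of 22 measured genes of replication origins and forks, 4 (18.2%) were at least 1.5-fold higher and 0 lower, beside 7.57% and 8.28% of all genes. Their median log2 difference was 0.19. CDT1, which licenses origins, was 2.32-fold higher and PRIM1, the primase subunit, 1.81-fold higher. MCM2 was 1.69-fold higher and RFC5 1.52-fold higher. Of 19 mitosis genes 0 passed 1.5-fold in either direction, with a median of 0.07. The replication list and the members thus had medians close to each other. Their shares of genes at least 1.5-fold higher were also close, at 18.2% and 17.2%. The part of S phase genes in the members' differences was not tested. The arrays carried the K562 markers in both conditions. HBG1 read 19115 in nilotinibR cells and 16611 in parental cells, and GATA1 638 in nilotinibR cells and 602 in parental cells. KLF1, a red cell transcription factor gene, was 2.80-fold higher, and TFRC, of the same marker list, 1.75-fold higher. Of the markers of lymphocytes, monocytes and granulocytes, CD3E, MPO, ELANE and CSF3R were dim on both arrays. Those above the dim probes on both arrays were CD3G, at 122 in nilotinibR cells and 151 in parental cells, LYZ, whose 2 probes averaged 141 in nilotinibR cells and 176 in parental cells, MS4A1 and CD14. Of 7 such markers measured, 0 passed 1.5-fold as the mean of kept probes, and 1 LYZ probe had a log2 difference of -0.79. Their part in the members' differences was not tested.

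The stretch around the start of 4 members is shown as examples. EME1, SLX4 and ATM are among the genes past 1.5-fold and share a short motif there. XRCC6, an end joining gene with a negative difference, does not have it. LIG4, another end joining gene, does have it, but its difference was -0.02 over probes above the dim level on both arrays. Only 2 measured end joining members had a window, so the motif cannot be compared between the 2 directions. The sequences are from RefSeq on GRCh38.p14 and run from 250 bases before to 50 after the annotated start. Capitals mark CCGGAAG on either strand, a core that ETS factors can bind, in EME1, SLX4 and ATM, and TTTNNCGC on either strand, an E2F type motif, in XRCC6. The windows are chr17:50372979-50373278 on the plus strand for EME1, chr16:3611557-3611856 on the minus strand for SLX4, chr11:108222817-108223116 on the plus strand for ATM and chr22:41621045-41621344 on the plus strand for XRCC6.
EME1: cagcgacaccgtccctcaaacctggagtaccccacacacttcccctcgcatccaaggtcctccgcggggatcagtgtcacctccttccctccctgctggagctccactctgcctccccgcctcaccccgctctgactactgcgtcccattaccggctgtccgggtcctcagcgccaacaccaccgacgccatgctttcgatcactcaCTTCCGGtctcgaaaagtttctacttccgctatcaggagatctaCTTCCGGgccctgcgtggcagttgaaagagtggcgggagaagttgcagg
SLX4: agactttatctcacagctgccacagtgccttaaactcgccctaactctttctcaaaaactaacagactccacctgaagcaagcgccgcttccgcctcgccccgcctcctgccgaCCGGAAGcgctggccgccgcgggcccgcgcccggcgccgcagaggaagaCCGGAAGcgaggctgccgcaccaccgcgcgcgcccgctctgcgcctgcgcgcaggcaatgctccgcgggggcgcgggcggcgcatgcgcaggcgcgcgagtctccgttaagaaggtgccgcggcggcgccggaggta
ATM: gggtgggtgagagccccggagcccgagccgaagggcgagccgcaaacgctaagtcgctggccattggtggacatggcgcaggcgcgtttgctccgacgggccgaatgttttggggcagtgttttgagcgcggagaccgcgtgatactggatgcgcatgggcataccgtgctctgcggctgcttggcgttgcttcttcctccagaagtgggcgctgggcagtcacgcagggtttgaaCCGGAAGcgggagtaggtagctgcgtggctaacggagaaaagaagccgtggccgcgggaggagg
XRCC6: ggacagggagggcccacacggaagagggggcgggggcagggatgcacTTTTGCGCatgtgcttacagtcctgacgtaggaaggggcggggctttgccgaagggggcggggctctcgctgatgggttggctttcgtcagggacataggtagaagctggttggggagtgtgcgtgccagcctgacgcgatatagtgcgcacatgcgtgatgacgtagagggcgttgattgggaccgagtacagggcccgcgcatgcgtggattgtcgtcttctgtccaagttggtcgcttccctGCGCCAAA

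The ETS core was found in the first listed window of 13 of 35 members with a window (37.1%), beside 10.7% of 27305 genes and 14.2% of 15843 protein-coding genes. Of the 5 members past 1.5-fold, 4 had a window and 3 of these held the core, and BRCA1, whose first window starts at an upstream annotated start, did not. The E2F type motif was in 7 of the 35 windows (20.0%), beside 6.90% of all genes and 8.86% of protein-coding genes, and in 0 of the 4 windows of members past 1.5-fold. The GATA motif AGATAA was in 1 of 35 windows (2.86%), that of SLX4, beside 10.5% of all genes and 7.57% of protein-coding genes. The CCAAT box, CCAAT, was in 15 of 35 (42.9%), beside 35.7% of all genes and 36.4% of protein-coding genes, and the cell cycle homology region, TTTGAA, in 4 of 35 (11.4%), beside 15.4% and 12.1%. These 5 motifs were the ones searched, on both strands. The ETS core was present in members that were higher and in members that were not, such as PALB2, BLM and LIG4. A match describes these letters in this window and says nothing of binding.

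**Figure D4:**
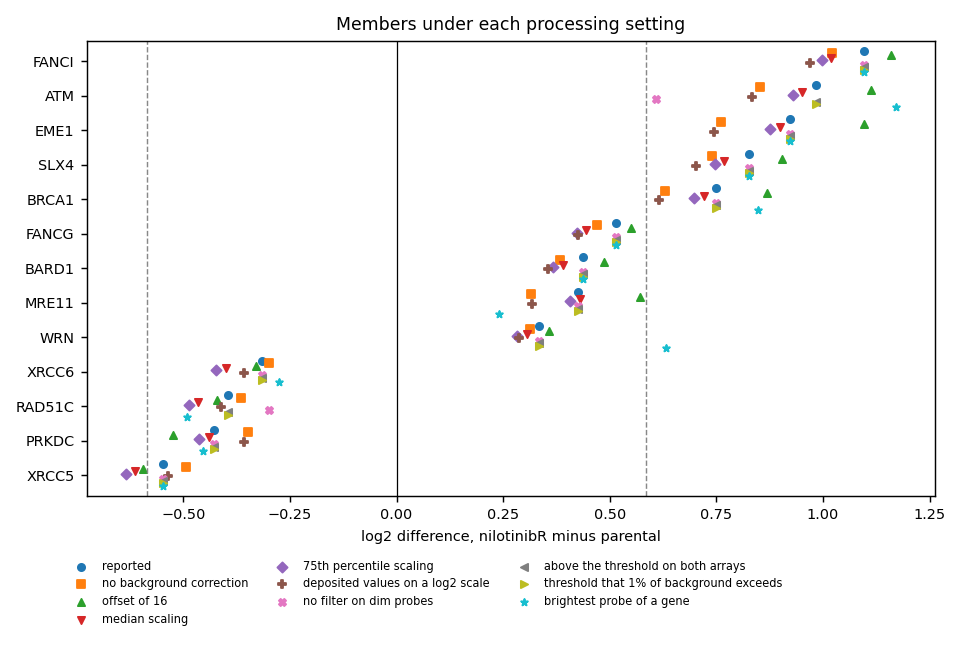
Log2 difference, nilotinibR minus parental, of 13 members under the reported processing and 9 alternatives, with 1.5-fold as dashed lines. FANCI, ATM, EME1, SLX4 and BRCA1 stay right of the upper line in all 10 settings, and XRCC5 crosses the lower line in 3.

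Across the 10 processing settings, FANCI lay between 0.97 and 1.16 on the log2 scale, ATM between 0.61 and 1.17, EME1 between 0.75 and 1.10, SLX4 between 0.70 and 0.90, and BRCA1 between 0.61 and 0.87. All 5 were past 1.5-fold in each of them. FANCI, EME1 and SLX4 rest on 1 probe each, bright on both arrays. For these genes the settings that change the probe filter or take the brightest probe could only repeat the reported value. The median of the end joining genes stayed negative in all 10, between -0.44 and -0.32. It was taken over 4 genes, or over 5 with dim probes included.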

How the data were processed

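RNA of nilotinibR and parental K562 cells was hybridized to 1 Illumina array each. The deposited intensities, linear and with background left in, covered 47323 probes (88.2 to 22044 for nilotinibR, 92.8 to 21126 for parental). The authors named Genome Studio and robust multichip average for processing, and no source used here says which of these steps the deposited intensities include. A further file holds 4 columns of signals and detection p-values headed by numbers that fit neither label, and it was left out, so no detection p was available. In limma 3.58.1 (R 4.3.3), normexp with an offset of 50 removed the background, arrays were quantile normalized, and log2 differences were taken as nilotinibR minus parental. A probe was kept if it exceeded, on at least 1 array, a level chosen so that 5% of normal background lies above it (119 for nilotinibR and 120 for parental), set from the mode of the dim probes. Kept probes of a gene were averaged over 13083 genes. The platform annotation gave 30113 probes 1 gene symbol, 8 probes several and 17202 probes none, and 30074 of the named probes were matched to current symbols through RefSeq GRCh38.p14. A count at 1.5-fold stands in place of a test, since 1 array per condition allows none. All members are named, with values for those past 1.5-fold by the mean or by any probe, and for other lists up to 6 genes past 1.5-fold are named. Members and lists were chosen with earlier results of these data known. The steps were tested on simulated data, with changes larger than 1.5-fold in genes well above background. That test does not cover dim members or changes near 1.5-fold. The authors' fold change tables were not used.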

Additional observations from a re-analysis of the deposited data

How the results depend on the processing

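No paired analysis was possible because each condition has a single array, which also leaves no replicate to omit. Of 261 member differences under an alternative, 257 kept their side of 1.5-fold and 4 passed it, namely WRN with its brightest probe (log2 difference 0.63) and XRCC5 with an offset of 16, median scaling and 75th percentile scaling. XRCC5 is thus the 1 member lower at 1.5-fold under each of those 3 settings, against 0 as reported. Where all probes of a member were well above the dim probes, the filter settings repeat the reported value. The 261 differences are therefore not separate checks. Of 82 medians under an alternative, 77 stayed within 1.5 times of the reported value. With no filter on dim probes the median was 0.10 for the members, 0.080 for the Fanconi core complex and 0.12 for the kinases, against 0.17, 0.26 and 0.25 as reported, since dim probes and genes enter. That of the core complex was 0.17 with 75th percentile scaling, and that of the helicases 0.36 with the brightest probe, against 0.21. At 2-fold, 1 member was higher (0 to 3 over the alternatives), as were 321 genes of all, and 366 were lower. With an offset of 16, 1566 genes of all were higher and 1656 lower at 1.5-fold, against 990 and 1083 as reported, because the smaller offset compresses dim genes less. Of the other double strand break and crosslink repair genes, 3 were higher with 75th percentile scaling and 3 in the deposited values, against 6, and 1 was lower without background correction, against 2. The cause was not tested. Counting a member by any kept probe, an alternative chosen after seeing the data as were leaving out EME1, counting POLQ with end joining and the 2-fold count under each setting, gave 7 higher and 0 lower. Signal over background limits GEN1, LIG4 and a probe each of XRCC2 and WRN, which lie next to the dim probes.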

Other observations

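Other routes of DNA repair were described with lists of the same kind. Of 17 base excision repair genes measured, 4 (23.5%) were higher by 1.5-fold or more in nilotinibR cells and 1 (5.88%) was lower, beside 7.57% and 8.28% of all genes, with a median log2 difference of 0.19. LIG1, the ligase that seals replication and repair nicks, was 1.91-fold higher, NEIL3, a glycosylase that also acts on crosslinks, 1.72-fold, XRCC1, the scaffold of single strand break repair, 1.68-fold and MBD4, a glycosylase of mismatched bases, 1.54-fold. NEIL2, another glycosylase gene, was 1.77-fold lower.

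Of 15 nucleotide excision repair genes measured, 1 was higher and 1 lower, with a median of -0.02. DDB2, which recognizes ultraviolet lesions, was 1.52-fold higher and CETN2, a centrin that binds the recognition factor XPC, 1.86-fold lower. Of 6 mismatch repair genes measured, 0 passed 1.5-fold, with a median of -0.16. PMS2 and PMS2CL, counted in that list, are a gene and its pseudogene copy that can share probe sequence.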
